A study of Mus musculus with 2 samples.

Results

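The miR-17-92 and miR-106b-25 clusters were followed in mouse quadriceps through their 9 main mature miRNAs, among 1023 mouse miRNAs on the array. The members were chosen by name, as all non-control spots whose name on the array was exactly mmu-miR-17, mmu-miR-18a, mmu-miR-19a, mmu-miR-19b, mmu-miR-20a or mmu-miR-92a (6 miRNAs of the miR-17-92 cluster) or mmu-miR-106b, mmu-miR-93 or mmu-miR-25 (3 miRNAs of the miR-106b-25 cluster). The prefix mmu, for mouse, is left out below. All their probes and all unflagged spots were used. Total RNA from quadriceps, a large thigh muscle, came from females aged 15 to 16 weeks, either wild type (WT) or double transgenic for NF90 and NF45 (NF90-NF45 dbTg). NF45 forms a complex with NF90, a double-stranded RNA binding protein, and this complex can attach to primary miRNAs and impede their cropping by the Microprocessor. Each genotype was measured on 1 single-colour miRNA array, so nothing could be tested, and all differences given here are between 2 samples of RNA. The promoter that drives the transgenes, and whether a sample was 1 animal or a pool, were not given in the sources used here.

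Both clusters are polycistrons, in which one primary transcript carries several hairpins that are cut out separately. The miR-17-92 cluster, also known as oncomiR-1, is a target of the transcription factors MYC and E2F and favours cell proliferation and survival through targets such as the cell cycle inhibitor Cdkn1a and the proapoptotic gene Bcl2l11. The miR-106b-25 cluster lies within the gene of Mcm7, a subunit of the helicase that starts DNA replication, and is known to be made together with it.

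In the GRCm38.p6 mouse genome the hairpins of miR-17-92 spanned 836 bases of the plus strand of chromosome 14, from 115043671 to 115044506. Their order along the transcript was miR-17, miR-18a, miR-19a, miR-20a, miR-19b-1 and miR-92a-1. The hairpins of miR-106b-25 spanned 498 bases of the minus strand of chromosome 5, from 138165321 to 138165818, inside the bounds of Mcm7 (138164583 to 138172111), in the order miR-106b, miR-93 and miR-25. Another related cluster, miR-106a-363, lies on the minus strand of chromosome X from 52741693 to 52742567. It encodes second copies of miR-19b and miR-92a, whose mature sequences are identical to those from chromosome 14, so the array signal of these members sums both clusters.

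All 9 members matched a mature sequence in RefSeq. They are shown because the shared seeds and the few bases that separate the members decide what the probes can tell apart. Capitals mark the seed, bases 2 to 8 from the 5′ end, through which a miRNA pairs with its targets. The members with the miR-17 seed were these.
miR-17: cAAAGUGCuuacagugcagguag
miR-20a: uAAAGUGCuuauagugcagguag
miR-106b: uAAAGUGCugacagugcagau
miR-93: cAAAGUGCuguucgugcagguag
The miR-18 seed had 1 member.
miR-18a: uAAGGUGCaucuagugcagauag
The miR-19 seed had 2 members.
miR-19a: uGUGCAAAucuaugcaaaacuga
miR-19b: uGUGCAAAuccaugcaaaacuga
The miR-92 seed joined a member from each cluster.
miR-92a: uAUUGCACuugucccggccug
miR-25: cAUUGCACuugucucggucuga
Counted from the 5′ end, miR-19a differed from miR-19b by U11C alone. miR-17 differed from miR-20a by C1U and C12U and from miR-106a, the first miRNA of the chromosome X cluster, by U10A alone.

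Of the 9 members, 7 were detected on both arrays, miR-18a was detected on the dbTg array only and miR-17 on neither. A probe was called detected where at least 0.5 of its unflagged spots were well above background. Across the array 17.1% of the mouse miRNAs were detected on both. Of the 1023, 36 were detected on the dbTg array only and 5 on the WT array only. The standard error given with a ratio (spot SE) reflects how far the 15 to 20 usable copies of a probe differed within an array, and holds nothing of the spread between animals. Ratios are log2 of dbTg over WT after division by an array factor, 882 for WT and 1220 for dbTg, which is percentile 75 of the signals of probes that both arrays detected. On this scale the median of the 175 miRNAs detected on both arrays was 0.0031. Of these, 11.4% were at least 2-fold higher in dbTg and 10.3% at least 2-fold lower, that is 20 and 18 miRNAs, which became 49 and 8 without scaling and 9 and 39 when positive control probes set the scale. None of the 7 members reached 2-fold in either direction. Their log2 ratios ran from -0.14 to 0.60 with a median of 0.21, and 6 of the 7 were above 0, beside 50.9% of all miRNAs.

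miR-19a, miR-20a and miR-19b, from the middle of the miR-17-92 cluster, had the highest ratios among the members. The mean signal over the probes of miR-19a was 70.8 for WT and 149 for dbTg. Its probes read 82.4 ± 8.46 and 59.1 ± 5.61 for WT and 172 ± 12.8 and 125 ± 9.56 for dbTg (SD between spots of 1 array). After scaling it was 1.52-fold higher in dbTg (log2 ratio 0.60, spot SE 0.030), the only member past 1.5-fold, a size that 25.1% of all miRNAs reached upwards. miR-20a, of the proliferation-promoting miR-17 seed, read 213 on WT and 415 on dbTg and was higher by a log2 ratio of 0.48 (spot SE 0.019), with 0.41 on one probe and 0.55 on the other. miR-19b, which has the seed of miR-19a, read 424 on WT and 810 on dbTg and was 1.37-fold higher (log2 ratio 0.45, spot SE 0.015), with 0.49 and 0.42 on its probes. For each of these 3 members the scaled spots of the dbTg array lay wholly above those of the WT array on both probes. In whole muscle RNA, more cells of a type and more RNA per cell cannot be told apart.

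The last member of that cluster, miR-92a, known as a brake on blood vessel growth, read 196 on WT and 297 on dbTg. Its log2 ratio was 0.10 (spot SE 0.022), and its spots overlapped between the arrays. The 4 members of miR-17-92 detected on both arrays thus had ratios that declined in the order of their hairpins, 0.60, 0.48, 0.45 and 0.10. This order was noticed after the values were seen. It leaves out miR-17 and miR-18a, which had ratios only without a filter on dim probes. In that setting miR-18a, from the second hairpin, was highest at 1.68, above miR-17 from the first. With these dim members included, the ratios did not follow the order of the hairpins. The step from miR-20a to miR-19b was not resolved by their spots. The signals of miR-19b and miR-92a also include their chromosome X copies. Of 13 alternative settings, 7 leave the differences between the 4 members as they are and could not change the order. The order held in 4 of the 6 that could. Among these 4, the array software's total gene signal and the authors' deposited values differ for the members only by a constant for each array. They are therefore not separate checks. With quantile normalization miR-20a was highest, at 0.52, ahead of miR-19a at 0.42, and with normexp background correction miR-19b was highest, at 0.35, and miR-19a stood at 0.12.

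**Figure D1:**
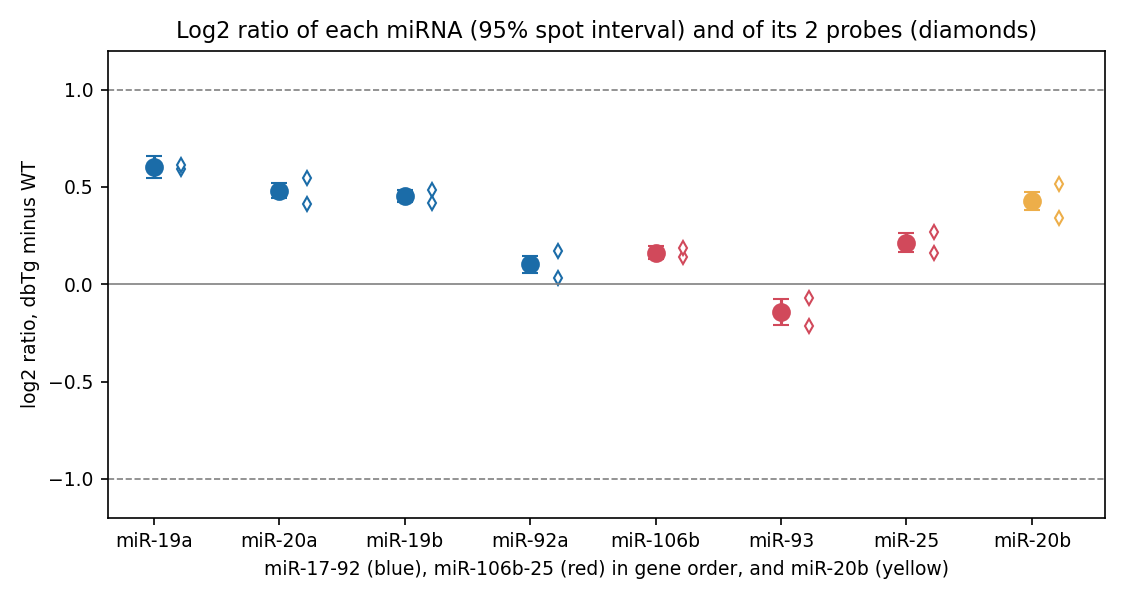
Log2 ratio of dbTg over WT (y axis) for the 7 members detected on both arrays and for miR-20b, with circles for the mean over 2 probes, bars for the 95% spot interval, diamonds for single probes and dashed lines at 2-fold. miR-19a, miR-20a, miR-19b and miR-20b lie between 0.43 and 0.60, the other 4 between -0.14 and 0.21.

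The 3 miRNAs of the miR-106b-25 cluster, like miR-92a, lay nearer to the array median than miR-19a, miR-20a and miR-19b. miR-106b read 210 on WT and 324 on dbTg, a log2 ratio of 0.16 (spot SE 0.017). miR-25, which shares its seed with miR-92a, read 151 on WT and 246 on dbTg, a ratio of 0.21 (spot SE 0.025). miR-93, with the miR-17 seed, read 137 on WT and 177 on dbTg and was the only member below 0, at -0.14 (spot SE 0.034), or 1.10-fold lower. Neither of its probes had spots apart between the arrays, and its sign depended on the scaling, since it came to 0.33 without scaling and to 0.15 when spike-in probes set the scale. The cluster median was 0.16, against 0.47 for the detected members of miR-17-92, a difference of -0.30. As a difference within arrays it could not be moved by a single scaling factor. It came to -0.20 with normexp correction and -0.25 with quantile normalization.

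**Figure D2:**
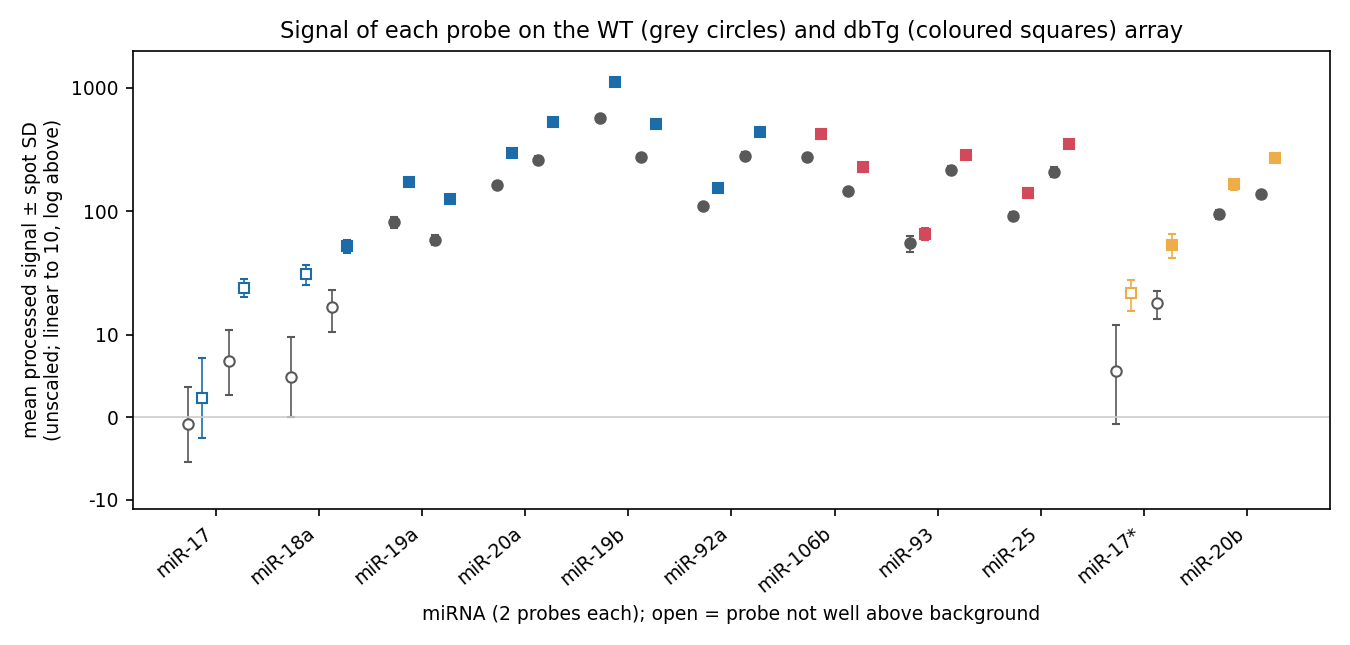
Mean unscaled processed signal (y axis, linear up to 10 and logarithmic above) of each of the 2 probes of the 9 members and of miR-17* and miR-20b, in grey circles for WT and coloured squares for dbTg, with bars for the SD between spots and open symbols for probes not well above background. Signals were higher on the dbTg array for all probes drawn, before any scaling, and miR-17, miR-18a and miR-17* lay at or near the background.

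Set in order, some neighbours could not be separated by their spots. miR-20a and miR-19b differed by 0.028 on the log2 scale, with a 95% spot interval from -0.019 to 0.076. miR-25 and miR-106b differed by 0.052, with an interval from -0.0077 to 0.11. miR-106b and miR-92a differed by 0.061, with an interval from 0.0064 to 0.11, but their probes overlapped in ratio. miR-92a and miR-93 differed by 0.24, with an interval from 0.17 to 0.32, so miR-93 stood apart below the others. The gap between miR-19b and miR-25 was no wider, at 0.24 with an interval from 0.18 to 0.30. It divided the 3 upper members from the 4 lower ones. This division, drawn after the values were seen, kept the same 3 members above the same 4 in each of the 6 alternatives that could change it. The gaps ran from 0.10 to 0.24. Of these 6, the array software's total gene signal and the authors' deposited values differ for the members only by a constant for each array. They are therefore not separate checks. The 2 probes of every member had ratios of 1 sign and differed by 0.019 to 0.15 on the log2 scale.

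Members of 1 seed were also compared. Among those with the miR-17 seed, miR-20a exceeded miR-106b by 0.32 (95% spot interval 0.27 to 0.37) and miR-106b exceeded miR-93 by 0.31 (0.23 to 0.38). The miR-19 pair was closer, with miR-19a above miR-19b by 0.15 (0.085 to 0.22). This order depended on the processing. With quantile normalization miR-19a and miR-19b lay at 0.421 and 0.415, and with normexp correction miR-19b was the higher, at 0.35 against 0.12. That correction adds an offset of 50 to every spot, beside WT signals of 82.4 and 59.1 on the probes of miR-19a. The part of the offset in the reversal was not tested. The miR-92 seed members, from different clusters, differed by 0.11 (0.047 to 0.18), with miR-25 the higher, but their probes overlapped in ratio. Within miR-17-92, miR-20a exceeded miR-92a by 0.38 (0.32 to 0.44).

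**Figure D3:**
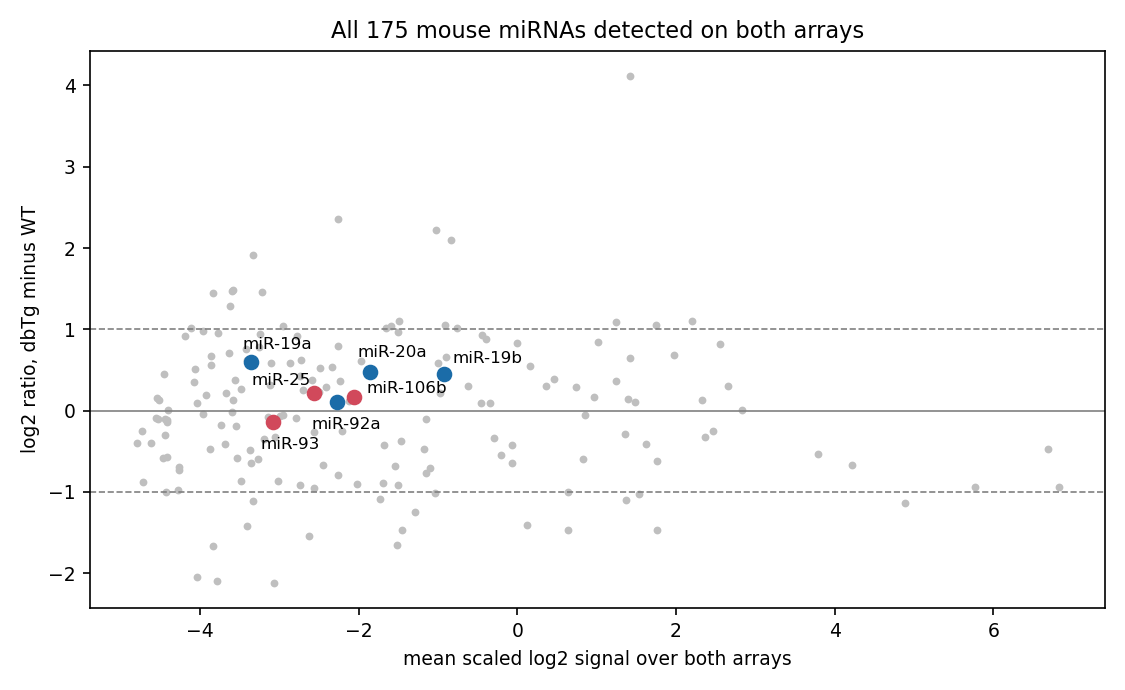
Log2 ratio of dbTg over WT (y axis) against the mean scaled log2 signal of both arrays (x axis) for the 175 mouse miRNAs detected on both, in grey, with members of miR-17-92 in blue, members of miR-106b-25 in red and dashed lines at 2-fold. All 7 members lie between the dashed lines, from -0.14 to 0.60.

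miR-18a, the second hairpin of miR-17-92, was dim. Its brighter probe read 16.7 ± 6.17 (SD, 19 spots of 1 array) on WT, where no spot was well above background, and 52.3 ± 6.21 (SD, 17 spots of 1 array) on dbTg, where all 17 were. Its other probe read 4.93 on WT and 31.1 on dbTg, with 8 of 18 dbTg spots well above background, just under the share needed. Set against the lowest detected signal of the WT array, 34.5 before scaling, the brighter probe alone was at least 1.09-fold higher in dbTg. That probe was used because it was detected on dbTg. The other probe lay below this lowest signal on dbTg too and gave no bound. Bounds of this kind compare the dbTg value with that lowest detected signal, and for miR-18a the bound ranged up to 1.51-fold without scaling. Under some others, with positive control probes setting the scale among them, no fold above 1 was left.

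miR-17, the founding member, gave no usable reading. Its probes, shown with the mature miR-106a because they pair with it without a mismatch, were among the shortest on the array, at 12 and 13 bases. Each is written 5′ to 3′, with the seed of miR-106a in capitals.
miR-17 probe of 12 bases: ctacctgcactg
miR-17 probe of 13 bases: ctacctgcactgt
miR-106a: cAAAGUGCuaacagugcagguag
They pair with bases 12 to 23 and 11 to 23 of miR-17, and the longer one read 6.88 on WT and 24.2 on dbTg, with no spot well above background on either array. Of the 458 mouse probes of at most 13 bases, 6.77% were detected on both arrays, against 12.9% of the 2187 longer ones. By single lengths the share did not rise steadily, at 4.69% for 12 bases, 9.17% for 13, 6.98% for 14 and 5.72% for 15. Whether the probes' length bears on the low signal was not tested. In the authors' deposited table miR-17, miR-18a and miR-17* stood at the lowest value of the WT column and above the lowest value of the dbTg column, at 0.0590, 0.203 and 0.185.

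The other arm of the same hairpin, miR-17*, was the only second arm of the 9 on the array that was detected at all. The hairpin is shown with both arms in capitals, miR-17 first and miR-17* second.
Mir17 hairpin: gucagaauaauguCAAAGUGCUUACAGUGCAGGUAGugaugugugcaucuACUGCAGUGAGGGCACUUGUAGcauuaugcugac
One of the 2 probes of miR-17* read 18.1 ± 4.74 (SD, 18 spots of 1 array) on WT, with no spot well above background, and 53.9 ± 11.6 (SD, 20 spots of 1 array) on dbTg, with all 20 well above. By this probe alone, miR-17* was at least 1.13-fold higher in dbTg. The bound was 1.56-fold without scaling and 1.01-fold with scaling on all miRNA probes. After scaling, the spots of this probe overlapped between the arrays. The other probe read 5.59 on WT and 21.7 on dbTg, with no spot well above background on either. As for miR-18a, no fold above 1 was left under some other settings, with positive control probes setting the scale among them. The probes of miR-17* match no other mature mouse miRNA within 1 mismatch, unlike those of miR-17 itself. The second arms of miR-18a, miR-19a, miR-19b-1, miR-20a, miR-92a-1, miR-106b, miR-93 and miR-25 did not rise well above background on any array.

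Among 14 related miRNAs, those of the chromosome X cluster or with a shared seed, only miR-20b was detected, on both arrays. The mature miR-20b is shown beside miR-20a above because their readings cannot be fully separated.
miR-20b: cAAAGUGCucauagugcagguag
It read 116 on WT and 219 on dbTg, a log2 ratio of 0.43 (spot SE 0.024). miR-20a exceeded it by 0.054, with a 95% spot interval from -0.0064 to 0.11. The mature forms differ by U1C and U10C, read from miR-20a to miR-20b, and both probes of miR-20b match miR-20a with 1 mismatch. miR-18b, miR-363-3p, miR-363-5p, miR-92b, miR-32, miR-367 and the second arms miR-106a*, miR-18b*, miR-20b*, miR-92a-2*, miR-19b-2*, miR-92b* and miR-32* did not rise well above background on any array.

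The division of the group coincided with sequence matches between probes and other miRNAs. Of the 18 member probes, 8 match another mature mouse miRNA with at most 1 mismatch over their whole length. They are the probes of miR-17, miR-19a, miR-19b and miR-20a. Both probes of miR-20a match miR-17 and miR-20b in this way, and those of miR-19a and miR-19b match each other. The 4 lower members, miR-92a, miR-106b, miR-93 and miR-25, have no such probe. Neither has miR-18a, which was detected on dbTg only and had no ratio. Its scaled spots nevertheless lay wholly higher on dbTg on both probes. Without the 8 probes the members' median was 0.13 over the 4 lower members. The difference between the cluster medians turned to 0.061, with miR-92a the only member of miR-17-92 left with a ratio. Cross-hybridisation was not measured, and its part in these ratios was not tested.

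The members' ratios moved with the scaling between arrays, because 1 factor shifts all miRNAs alike. For miR-92a, miR-106b, miR-93 and miR-25 the move exceeded their distance from 0. It did so for miR-19b too, upwards, from 0.45 to 0.92 without scaling. Without scaling the members' median was 0.68, beside 0.47 for all 175 miRNAs. When positive control probes set the scale it was -0.13, beside -0.34. Relative to the array median the members stayed at 0.21 under every single-factor scaling, by construction. miR-19a, miR-20a and miR-19b were above 0 in all 13 alternatives that gave them a value. When positive control probes set the scale, miR-106b, miR-25 and miR-92a came out below 0, at -0.18, -0.13 and -0.24. Over all 15 alternatives, miR-92a was below 0 in 6, miR-106b in 5 and miR-25 in 2. Only without scaling did a detected member pass 2-fold, miR-19a at 1.07. The authors' deposited table gave 0.43 for miR-19a, 0.33 for miR-20a, 0.29 for miR-19b, 0.064 for miR-25, -0.018 for miR-106b, -0.040 for miR-92a and -0.27 for miR-93, the same division with lower values.

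**Figure D4:**
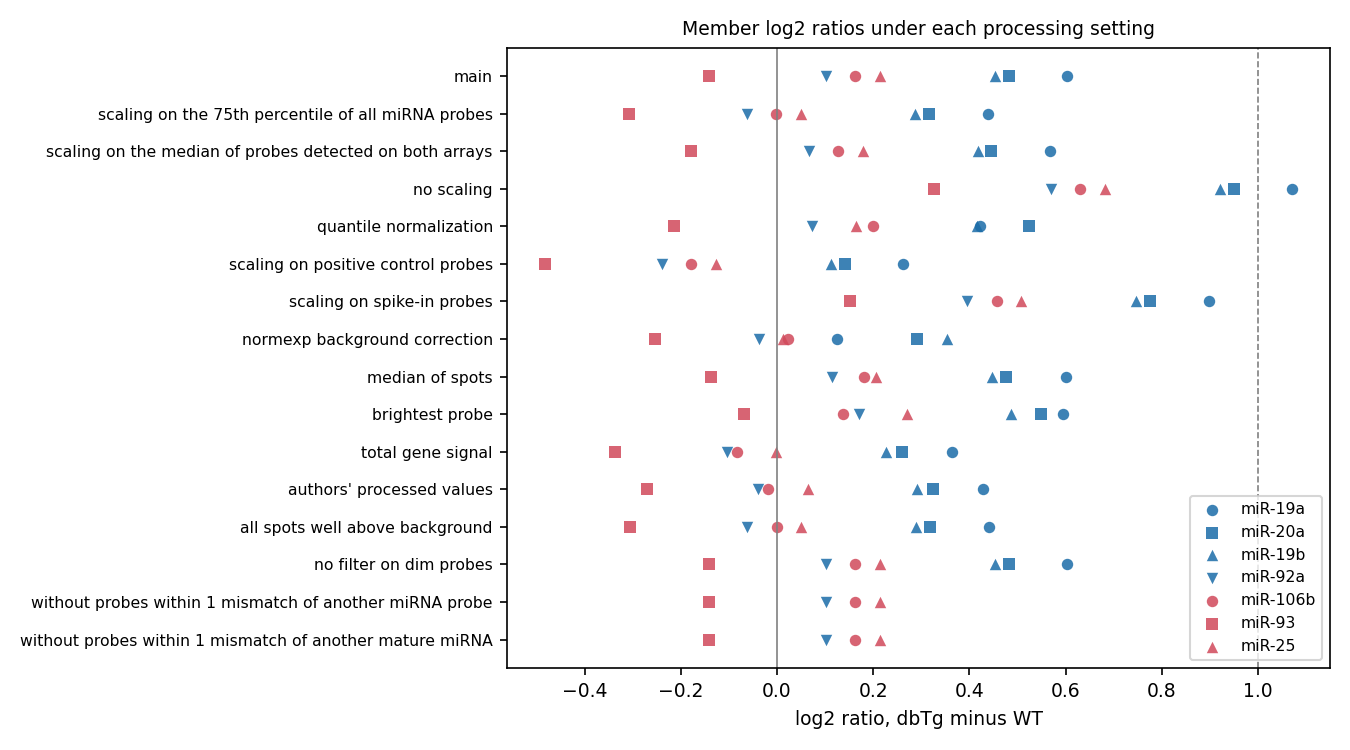
Log2 ratio of dbTg over WT (x axis) of the 7 members detected on both arrays under each processing setting (y axis), with miR-17-92 in blue, miR-106b-25 in red and a dashed line at 2-fold. miR-19a, miR-20a and miR-19b stay to the right of the other 4 members in each setting that has them, and miR-19a alone crosses the dashed line, at 1.07 without scaling.

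The labelled tissue carried its markers. Of 5 skeletal muscle miRNAs, 4 were detected on both arrays, miR-1 at a ratio of -0.93, miR-133a at -1.14, miR-133b at -0.94 and miR-206 at 4.11, and miR-499 on the dbTg array only. Their summed signal over all probes, before scaling, was 555036 for WT and 434268 for dbTg. Markers of other cells differed between the samples as well. For blood and immune cells, 4 of 5 miRNAs were detected on both arrays, with ratios from 0.26 to 2.23, the fifth, miR-142-5p, was detected on dbTg only, and the same sum was 1134 on WT and 4921 on dbTg. All 5 fibroblast miRNAs had ratios from 0.54 to 1.04, with summed signals of 5504 and 13100. The 2 red cell miRNAs had ratios of -0.29 and -0.27, with sums of 5401 and 6132, and the 4 vessel miRNAs ran from -0.65 to 0.13, with sums of 11287 and 15535. The corresponding sums for the 9 members were 2830 and 4946. All these sums are unscaled, whereas the ratios are scaled, so a list with ratios below 0 can have the higher sum on dbTg. The part of these cell types in the members' ratios was not tested.

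The 3 other miRNAs whose log2 ratio lay nearest to the members' median of 0.21, over 2 samples, were miR-1904 at 0.21, miR-107 at 0.22 and miR-152 at 0.23. With 1 difference between 2 samples, many miRNAs lie this close, and this likeness describes size alone.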

How the data were processed

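The RNA carried the dye Cy3, per the labels, and both arrays were of 1 design. The authors deposited the intensity of each spot as processed signal from Agilent Feature Extraction, version 10.7.3.1, with spatial detrending switched on, per the file headers. Both arrays were on the same slide and carry the same scan time, per the file headers. The authors also deposited a table of processed signals, whose direction and linear scale were found by setting it against Feature Extraction's total gene signal. For 77.2% of its entries above the lowest value on WT and 75.9% on dbTg, it equals that signal divided by 1 constant per array, 74.3 and 154, within 0.1%. The column medians are at the lowest value, 0.00135 and 0.00065, and the origin of the constants and any centring stay unknown. The deposited flags for background and outliers were used as given.

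Control spots and spots flagged as outliers were left out, and the processed signals of the others were averaged per probe. No miRNA spot was saturated. Of 43200 miRNA spots per array, 14.9% (WT) and 17.7% (dbTg) were well above background. Signals were divided by an array factor, percentile 75 over the probes that both arrays detected, and a miRNA's log2 ratio is the mean over such probes. The number of arrays limits the precision. Members, lists and rules were chosen with earlier results of these data known. Named miRNAs were the 9 members, their second arms, the related miRNAs and the 3 others nearest to the members' median. Cell markers were listed for 5 tissues. Mature and hairpin sequences are RefSeq's on GRCm38.p6, and 21 of 23 second arms and related miRNAs on the array matched one. The probe positions in the files are on mm9 and were not used. Alternatives covered scaling, normexp correction (limma 3.58.1, offset 50), spot and probe summaries, dim probes, probe specificity and the deposited values. Python 3.11.15 was used, and the scripts were tested on simulated data.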

Additional observations from a re-analysis of the deposited data

How the results depend on the processing

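The members' median log2 ratio, 0.21 as reported, was 0.18 with scaling on the median probe, 0.20 with quantile normalization and 0.20 with medians of spots. It was 0.049 with scaling on all miRNA probes, 0.68 without scaling, -0.13 with scaling on positive control probes, 0.51 with scaling on spike-in probes, 0.023 with normexp correction, 0.27 with the brightest probe, -0.0012 with total gene signal, 0.064 in the authors' values, 0.051 when all spots had to be well above background (148 miRNAs in place of 175), 0.45 without a filter on dim probes and 0.13 without probes within 1 mismatch of another miRNA's probe. The last value was the same without probes within 1 mismatch of another mature miRNA, which was chosen after seeing the data. Across the array, the 20 miRNAs at least 2-fold higher and 18 lower became 10 and 31 with scaling on all miRNA probes, 49 and 8 without scaling, 9 and 39 on positive control probes, 35 and 11 on spike-in probes, 7 and 12 with normexp correction, 10 and 32 with total gene signal, 13 and 34 of 192 in the authors' values, 7 and 26 of 148 with all spots above background and 118 and 91 of 548 without the filter. The count of members past 2-fold, 0 as reported, was 1 without scaling, 2 without a filter on dim probes, where miR-17 and miR-18a entered at signals not well above background, and 1 at a size of 1.5-fold. The difference of the cluster medians, -0.30 as reported, was -0.25 with quantile normalization, -0.20 with normexp correction, -0.38 with the brightest probe, -0.38 without a filter on dim probes and 0.061 under both specificity alternatives, where fewer members remained. Signal over background limits miR-17, miR-18a and the second arms. No paired analysis was possible because each genotype has 1 array.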
